A study of Homo sapiens with 10 samples.

Results

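The enrichment of 2 active histone marks was examined at 7 genes linked to the neural and neuroendocrine state of prostate cancer cells: SOX2, POU3F2, NKX2-1, ONECUT2, LMO3, CELF3 and PCSK1. The genes were taken by name, as 7 of the 20033 protein-coding genes of the GENCODE annotation. Every peak of the 4 deposited lists over each gene body and 50 kb to each side was collected. ChIP-Seq against H3K27ac and H3K18ac had been done in C4-2B, a castration-resistant human prostate adenocarcinoma line, and in C4-2BER, a line derived from C4-2B by growth in the drug enzalutamide and labelled as neuroendocrine-like. Both lines were kept in RPMI with fetal bovine serum, but only C4-2BER was grown with enzalutamide in the medium. C4-2BER is also a single derived line, so the line, the drug and the derivation cannot be told apart. Each mark had 2 libraries per line and each line had 1 input library. The authors merged the replicates before calling peaks, so 1 list stood for each mark and line. No value had a replicate error, no test between the lines could be made, and the read depth behind the lists is unknown. A peak list also cannot separate a mark present in fewer cells from a mark that is weaker in every cell.

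H3K27ac and H3K18ac are acetyl groups on the tail of histone H3, placed mainly by the related enzymes p300 and CBP at active promoters and enhancers. Prostate adenocarcinoma cells that lose their luminal identity under hormone-directed therapy can take up neural and neuroendocrine programmes. SOX2 is a transcription factor of stem cells and neural progenitors. POU3F2, also called BRN2, NKX2-1 and ONECUT2 are homeodomain transcription factors of neural or endocrine tissues. LMO3 is a LIM-only cofactor that binds other proteins and not DNA. CELF3 is an RNA-binding protein that regulates splicing in neurons, and PCSK1 is the convertase that cuts prohormones in secretory granules.

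The DNA at the start sites differed in CpG content among the 7 genes. The RefSeq promoters (GRCh38.p14, 250 bases before to 50 bases after the start) of ONECUT2 and POU3F2 held 24 CpG each, NKX2-1 held 21, SOX2 held 20, PCSK1 held 16, LMO3 held 10 and CELF3 held 9. The median over 35116 RefSeq promoters was 14. The 4 genes with 20 or more CpG were the same 4 that had an H3K27ac promoter peak in both cell lines. Such a peak was sought from 2000 bp upstream to 500 bp downstream of every annotated start. On the 300 bases themselves both lines had H3K27ac only at SOX2 and ONECUT2, while POU3F2 and NKX2-1 had it in C4-2B only. Below are the promoter with the highest H3K27ac of the 7 (ONECUT2), both promoters with an H3K27ac peak in a single line (LMO3 and CELF3), and the promoter without an H3K27ac peak (PCSK1). Each is written 5′ to 3′ on the strand of its gene, with every CpG in capitals.
ONECUT2 promoter: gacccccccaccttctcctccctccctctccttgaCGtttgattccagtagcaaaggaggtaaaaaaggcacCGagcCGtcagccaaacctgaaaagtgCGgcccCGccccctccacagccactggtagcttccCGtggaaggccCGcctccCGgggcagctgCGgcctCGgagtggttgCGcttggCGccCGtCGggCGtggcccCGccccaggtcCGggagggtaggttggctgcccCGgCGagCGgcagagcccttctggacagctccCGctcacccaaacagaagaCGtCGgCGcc
LMO3 promoter: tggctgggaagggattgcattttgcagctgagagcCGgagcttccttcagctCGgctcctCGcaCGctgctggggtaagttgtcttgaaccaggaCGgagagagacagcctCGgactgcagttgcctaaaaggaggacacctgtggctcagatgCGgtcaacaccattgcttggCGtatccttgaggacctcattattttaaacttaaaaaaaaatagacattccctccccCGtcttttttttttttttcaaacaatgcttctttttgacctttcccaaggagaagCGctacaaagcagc
CELF3 promoter: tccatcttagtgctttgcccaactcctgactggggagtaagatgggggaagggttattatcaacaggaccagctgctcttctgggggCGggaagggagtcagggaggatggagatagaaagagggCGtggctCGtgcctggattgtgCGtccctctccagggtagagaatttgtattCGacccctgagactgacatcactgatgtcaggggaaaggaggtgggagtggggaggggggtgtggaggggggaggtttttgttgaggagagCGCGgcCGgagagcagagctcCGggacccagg
PCSK1 promoter: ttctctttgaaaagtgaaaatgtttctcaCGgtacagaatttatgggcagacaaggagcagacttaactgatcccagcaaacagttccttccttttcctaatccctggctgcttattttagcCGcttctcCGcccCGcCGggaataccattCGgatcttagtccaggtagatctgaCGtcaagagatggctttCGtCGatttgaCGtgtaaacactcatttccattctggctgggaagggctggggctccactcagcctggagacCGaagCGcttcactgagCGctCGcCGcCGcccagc
The positions were chr18:57435124-57435423 on the plus strand for ONECUT2, chr12:16606113-16606412 on the minus strand for LMO3, chr1:151716754-151717053 on the minus strand for CELF3 and chr5:96433199-96433498 on the minus strand for PCSK1. In these 300 bases no peak of any list covered the PCSK1 promoter, and both marks of both lines covered that of ONECUT2. The 300 bases of CELF3 had H3K18ac of both lines but no H3K27ac, whose C4-2B peak lay farther into exon 1. Those of LMO3 had H3K18ac of both lines and H3K27ac of C4-2BER. The ONECUT core words ATCAAT and ATCGAT and the forkhead word TGTTTAC were searched on both strands of all 7 promoters. TGTTTAC was found once, at PCSK1, and is held by 3.42% of all RefSeq promoters. The other words were not in these windows, while ATCAAT is held by 6.26% and ATCGAT by 0.763% of all promoters.

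Away from the promoters, the upstream element of POU3F2 had the lowest shared H3K27ac ratio and the intron element of ONECUT2 the highest shared H3K18ac ratio of the 7 windows. The central 300 bases of each peak are given on the plus strand of GRCh38, and capitals mark words of 16 bases that occur at least 100 times on chromosome 1.
POU3F2 upstream element: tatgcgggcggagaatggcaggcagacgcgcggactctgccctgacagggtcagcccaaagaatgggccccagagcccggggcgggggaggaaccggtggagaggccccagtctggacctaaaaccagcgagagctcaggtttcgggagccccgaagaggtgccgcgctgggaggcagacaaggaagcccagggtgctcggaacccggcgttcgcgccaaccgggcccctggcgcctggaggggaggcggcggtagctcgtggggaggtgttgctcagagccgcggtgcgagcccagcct
ONECUT2 intron 1 element: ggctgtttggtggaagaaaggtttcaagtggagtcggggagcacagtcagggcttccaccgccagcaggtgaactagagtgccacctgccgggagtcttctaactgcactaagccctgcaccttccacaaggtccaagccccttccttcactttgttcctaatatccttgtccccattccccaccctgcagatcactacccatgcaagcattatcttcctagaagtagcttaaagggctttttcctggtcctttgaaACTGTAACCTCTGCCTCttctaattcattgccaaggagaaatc
They lie at chr6:98831464-98831763 and chr18:57446453-57446752, in this order. Such words made up 0.0% of the 16-base words read at every position of the first and 0.702% of those of the second. These are shares of words, which overlap, and not of bases. Over the genome repeated words were at least 50% of all words in the central 300 bases at 8.07% of the shared H3K27ac regions. This held for 13.7% of the C4-2BER-only regions and 17.3% of the C4-2B-only regions. In the 7 windows 1 of 11, 1 of 6 and 0 of 8 regions, in the same order, reached 50%. The part of repeated words in the results was not tested.

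In total 21 of the 68034 H3K27ac peaks of C4-2B and 17 of the 72971 of C4-2BER fell in the 7 windows. For H3K18ac there were 60 of 198451 peaks in C4-2B and 65 of 197948 in C4-2BER. Fold enrichment is the authors' ratio of ChIP signal to local background for a peak, and its median over the windows was 3.6 in C4-2B and 2.79 in C4-2BER for H3K27ac, against 3.47 and 3.31 over the whole lists. For H3K18ac the medians were 2.88 and 2.43, against 2.74 and 2.55. Nearly every H3K27ac peak of the windows lay on an H3K18ac peak of the same line (20 of 21 in C4-2B, 16 of 17 in C4-2BER), and over the whole lists the shares were 93.8% and 92.5%. Most H3K18ac peaks had no H3K27ac peak on them: 18 of 60 did in C4-2B and 17 of 65 in C4-2BER, against 30.8% and 33.4% of the lists.

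**Figure D1:**
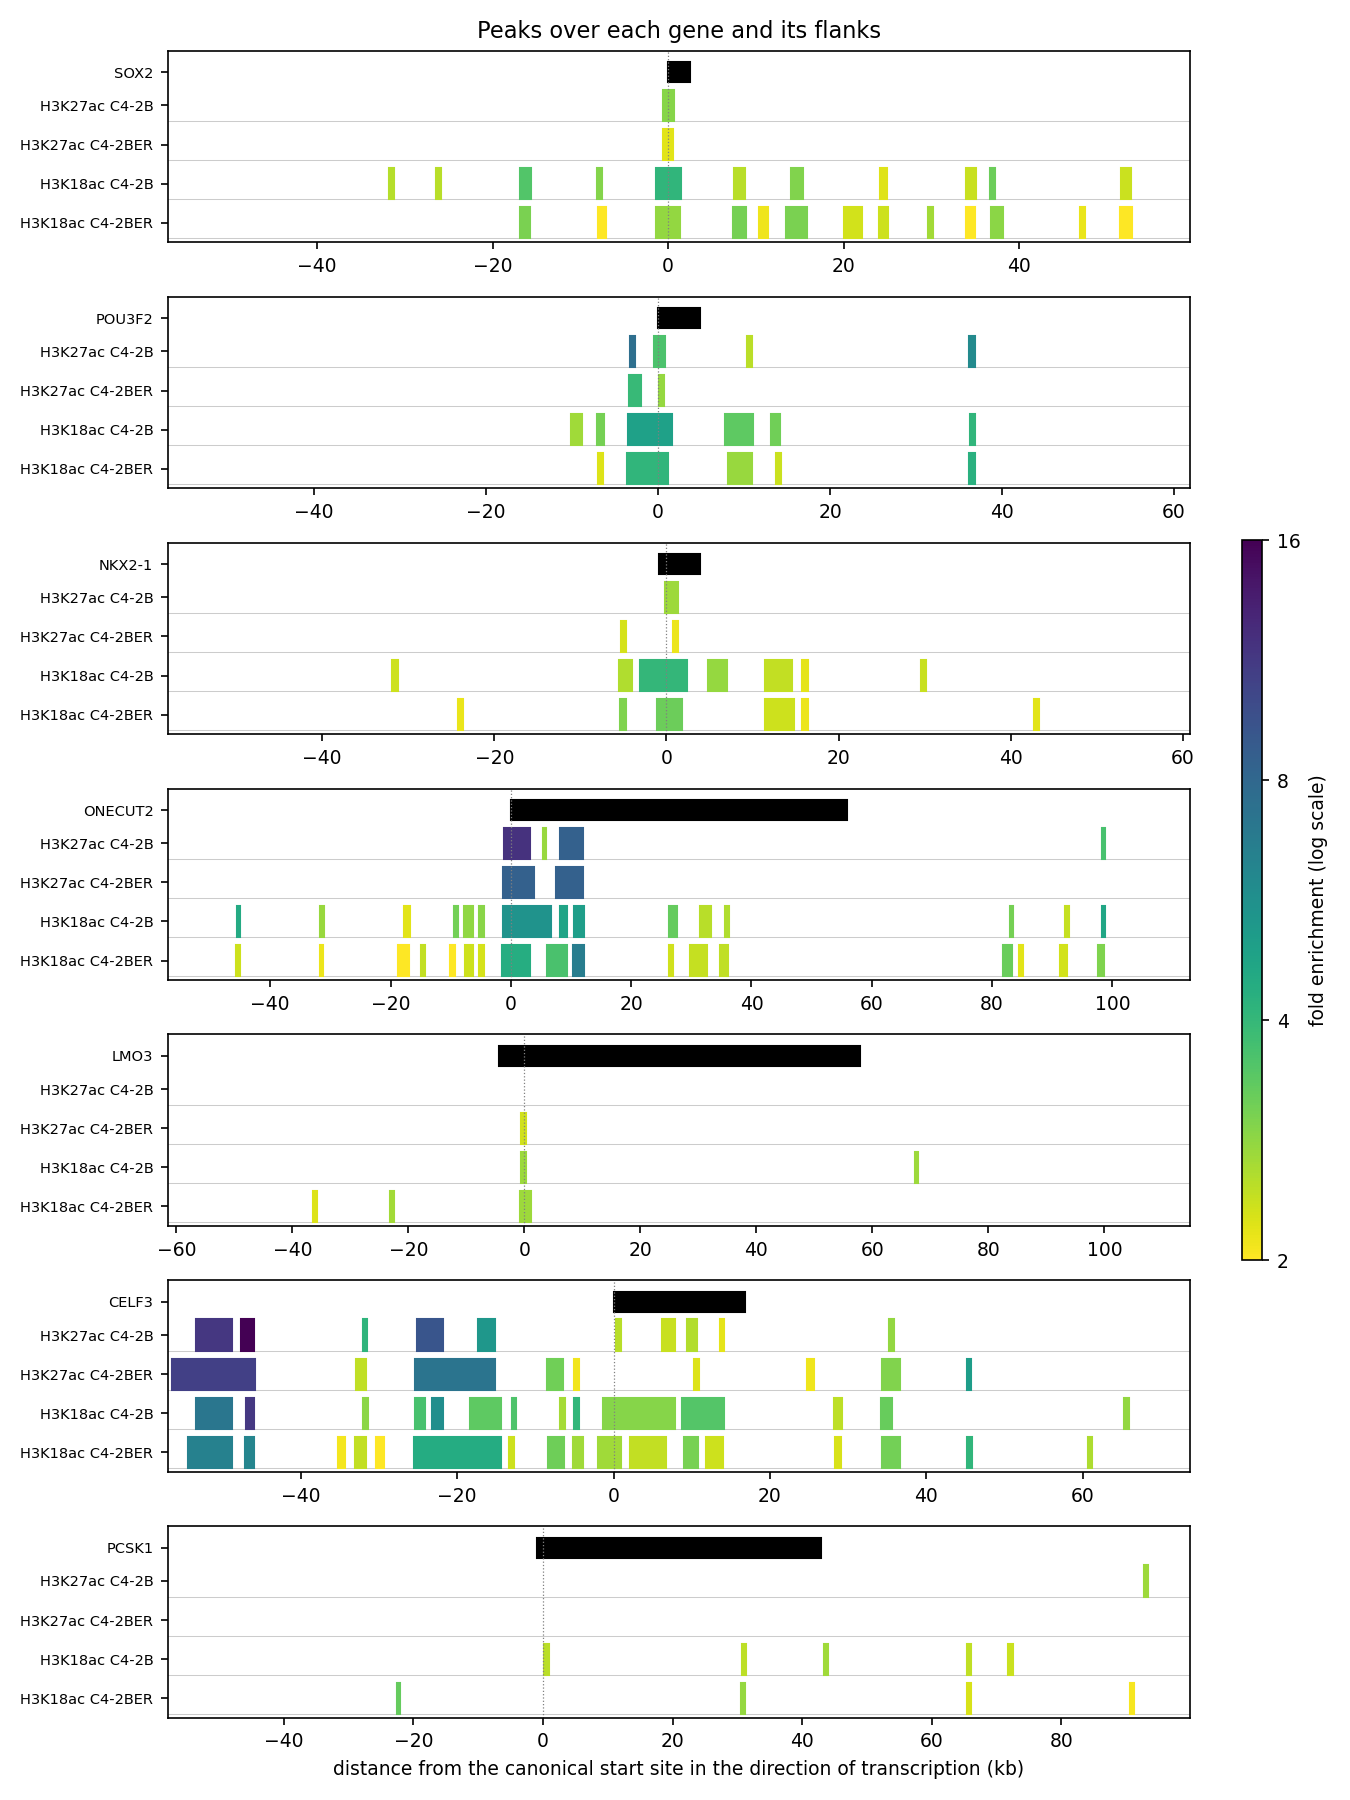
Peaks of the 4 lists over the 7 genes, plotted as distance from the canonical start site in kb along the direction of transcription, with the gene body in black and colour for fold enrichment on a log scale capped at 2 and 16. Narrow peaks are drawn at least 0.6 kb wide. ONECUT2 carries broad H3K27ac peaks at its start and in intron 1 in both lines, while LMO3 and PCSK1 have at most 1 H3K27ac peak in any list.

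The promoters of these genes carried little acetylation compared with other genes, and where both lines had a peak the fold enrichment was lower in C4-2BER. Each annotated start was given a promoter window reaching 2000 bp upstream and 500 bp downstream, with the highest fold of a peak there as its value. Each line had an H3K27ac peak over 5 of the 7 promoters, with SOX2, POU3F2, NKX2-1 and ONECUT2 in both lists, LMO3 in C4-2BER only and CELF3 in C4-2B only. H3K18ac covered all 7 promoters in C4-2B and 6 in C4-2BER, all but PCSK1. Over all genes 73.8% of promoters had H3K27ac in C4-2B and 74.2% in C4-2BER, and 87.2% and 85.2% had H3K18ac.

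A promoter was called increased in C4-2BER where the ratio of the lines was at least 2 or only C4-2BER had a peak, and decreased in the mirrored case. For H3K27ac LMO3 was the 1 increased promoter of the 7, where 3.49% of all promoters were increased, and CELF3 was the 1 decreased, where 8.27% of all were. For H3K18ac none was increased (1.92% of all promoters) and PCSK1 was decreased (5.25% of all). In the 4 genes with H3K27ac in both lines the log2 ratio of C4-2BER over C4-2B ran from -0.49 at ONECUT2 to -0.35 at NKX2-1. The median over all 14304 genes with a promoter peak in both lines was -0.50, and 1744 of them were higher in C4-2BER. The 6 H3K18ac ratios ran from -0.55 at SOX2 to -0.01 at LMO3, with a median over 16702 genes of -0.33 and 2516 genes higher in C4-2BER. The lower values at these promoters lay within a shift shared by most promoters.

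**Figure D2:**
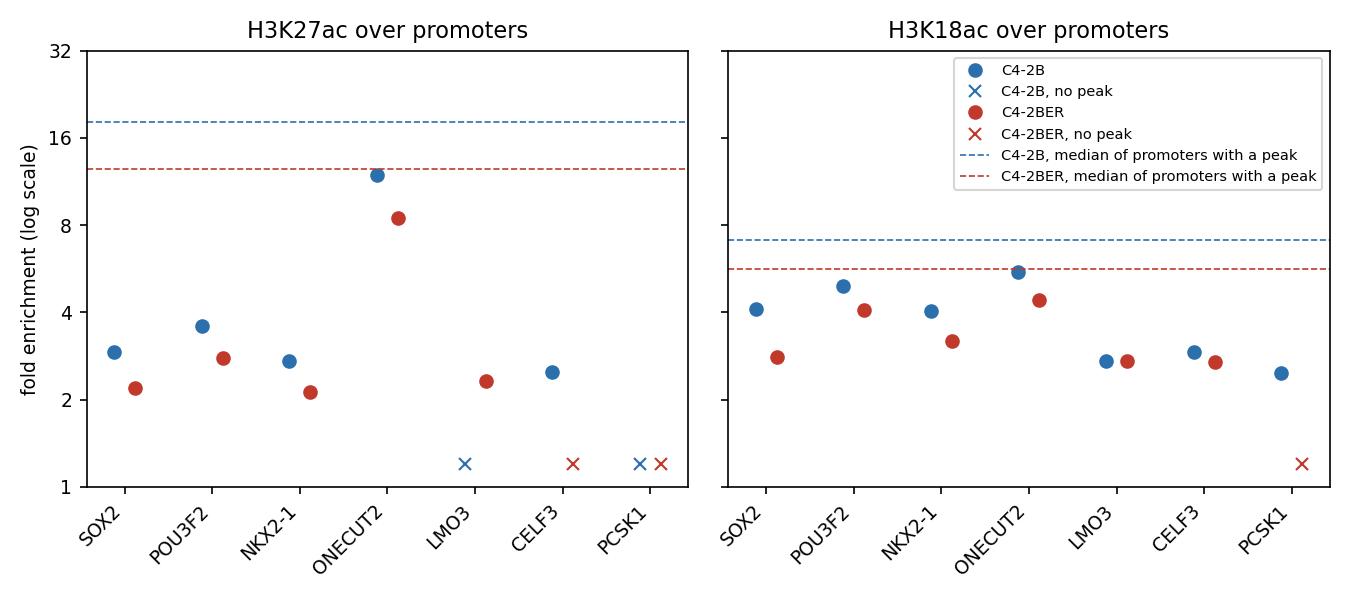
Highest fold enrichment of a promoter peak (log scale) for each of the 7 genes, with H3K27ac on the left and H3K18ac on the right; points are the pooled list of a line, crosses at the foot mark no peak, and dashed lines are the medians of all gene promoters with a peak in that line. ONECUT2 is the highest of the 7 in each list, and all points lie under the median of their own list.

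ONECUT2, a regulator of liver, retinal and neuronal genes, lies at chr18:57435374-57491298 on the plus strand and had the strongest marks of the 7. Its H3K27ac promoter peak had a fold of 11.9 in C4-2B and 8.47 in C4-2BER (log2 ratio of the region -0.49), and its H3K18ac promoter fold was 5.52 and 4.42. Even so, 26.5% of the promoters with H3K27ac in C4-2B lay below it, and 24.1% in C4-2BER. The peak at the start was broad, 4280 bp in C4-2B and 5104 bp in C4-2BER, wider than 92.5% and 93.1% of the peaks of those lists.

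A second broad H3K27ac region in intron 1 of ONECUT2, from 7486 to 12061 bp after the start, had the same fold of 8.49 in both lines. Within it H3K18ac from 10371 to 12105 bp was 6.68 in C4-2BER against 5.03 in C4-2B (log2 ratio 0.41), the highest ratio of the 46 H3K18ac regions shared by the lines in the 7 windows. The ONECUT2 intron sequence shown above is the centre of this C4-2BER peak. Smaller H3K27ac peaks from 5295 to 5830 bp (fold 2.75) and from 98200 to 98489 bp (fold 3.67) were in C4-2B only. The lowest of those 46 ratios was upstream, from -45613 to -45102 bp, where the H3K18ac fold was 4.51 in C4-2B and 2.35 in C4-2BER (log2 ratio -0.94). Of the 16 H3K18ac regions of the window 14 were shared, 2 were C4-2BER-only and none C4-2B-only. Upstream peaks lie in the promoter window of the noncoding ENSG00000277837, where the highest H3K18ac fold was 3.12 in C4-2B and 2.01 in C4-2BER.

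POU3F2, a single-exon gene at chr6:98834574-98839458 on the plus strand, had lower enrichment in C4-2BER both at its start and at a stronger element upstream. The promoter fold of H3K27ac was 3.6 in C4-2B and 2.79 in C4-2BER, and that of H3K18ac was 4.92 and 4.09. In C4-2B the H3K27ac peak crossed the start from -435 to 804 bp, while in C4-2BER it spanned 463 bp within the exon, from 75 to 537 bp. No H3K27ac peak of C4-2BER therefore lay on the 300-base RefSeq promoter of POU3F2, although its H3K18ac peak did.

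The POU3F2 upstream element, at -3230 to -2692 bp in C4-2B, had an H3K27ac fold of 7.54, with 76.3% of that list below it. In C4-2BER the peak there was wider, 1430 against 539 bp, and its fold was 3.95. The log2 ratio of -0.93 was the lowest of the 11 H3K27ac regions shared by the lines in the 7 windows. In C4-2BER the element ended at -2004 bp, just outside the promoter window of POU3F2. In both lines it overlaps the long noncoding gene ENSG00000283010 and the promoter window, but not the body, of the long noncoding gene ENSG00000289501. A single H3K18ac peak joined the element and the start in each line, 5182 bp wide in C4-2B and 4762 bp in C4-2BER.

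Downstream of POU3F2 the marks parted. The H3K27ac peak from 36209 to 36652 bp, which overlaps the gene FBXL4, had a fold of 5.95 in C4-2B and no counterpart in C4-2BER. H3K18ac there was 4.11 in C4-2B and 4.26 in C4-2BER. Repeated words made up 48.4% of the 16-base words in the central 300 bases of this region. Of the 4 H3K27ac regions of the window 2 were decreased and none increased, and of the 6 H3K18ac regions 1 was decreased, from -10097 to -8804 bp.

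SOX2, a single-exon gene at chr3:181711925-181714436 on the plus strand inside the long noncoding gene SOX2-OT, had 1 H3K27ac region, at its start. The fold was 2.92 in C4-2B and 2.19 in C4-2BER, and only 0.834% of the H3K27ac promoters of C4-2BER lay below it. H3K18ac at the start was 4.11 and 2.81, the lowest ratio (log2 -0.55) among the 6 H3K18ac promoters shared by the lines. In C4-2B 5.68% of the H3K27ac promoters lay below it.

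The noncoding ENSG00000289435 has the same promoter values as SOX2, and SOX2-OT differs only in H3K18ac of C4-2BER (3.04, from another of its starts). Around SOX2 the H3K18ac peaks were more numerous in C4-2BER, 13 against 11, and lower, with a median fold of 2.34 against 2.52. All 4 regions found in C4-2BER only were downstream of the gene, from 10350 to 11382 bp (fold 2.1), 20004 to 22099 bp (2.31), 29585 to 29834 bp (2.67) and 46967 to 47212 bp (2.15). Both regions found in C4-2B only were upstream, with folds of 2.52 from -31847 to -31546 bp and 2.5 from -26497 to -26203 bp. None of these 6 regions had H3K27ac in either line. Peaks covered 16787 bp of the window in C4-2BER and 11280 bp in C4-2B.

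NKX2-1, known for its part in lung, thyroid and forebrain development, lies at chr14:36516392-36521149 on the minus strand and shares its promoter with NKX2-1-AS1 and SFTA3, so the source of these peaks cannot be split between the genes. H3K27ac was 2.71 in C4-2B and 2.12 in C4-2BER, and H3K18ac was 4.04 and 3.19. The H3K27ac peak of C4-2B was 1559 bp wide and crossed the canonical start, from -213 to 1345 bp. That of C4-2BER was 313 bp wide, from 711 to 1023 bp, and reached only the windows of other annotated starts.

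Upstream of NKX2-1 the order was turned. An H3K27ac peak from -5274 to -4768 bp was in C4-2BER only, with a fold of 2.29, and H3K18ac there was 2.99 in C4-2BER against 2.56 in C4-2B (log2 ratio 0.22). The −log10 q-value of this H3K27ac peak was 1.63, the weakest call among the H3K27ac peaks of the NKX2-1 window. An H3K18ac region of 2255 bp just past the gene, from 4824 to 7078 bp, was in C4-2B only with a fold of 2.79. Of the 9 H3K18ac regions 2 were C4-2BER-only and 3 C4-2B-only.

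LMO3 lies at chr12:16548372-16610594 on the minus strand, and was the only one of the 7 with a promoter peak of a mark in C4-2BER and none in C4-2B. H3K27ac from -609 to 327 bp of the canonical start had a fold of 2.32 and a −log10 q-value of 2.24 in C4-2BER, and no H3K27ac peak of C4-2B lay anywhere in the window. This is near the lower end of the list, with 17.9% of the C4-2BER peaks below it. H3K18ac over the same start was nearly equal, 2.71 in C4-2BER against 2.73 in C4-2B, but its peak was 1843 bp wide in C4-2BER and 803 bp in C4-2B.

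In the LMO3 upstream flank C4-2BER alone had H3K18ac peaks, from -23199 to -22451 bp (fold 2.67) and from -36348 to -36107 bp (fold 2.23). C4-2B alone had a peak of 218 bp past the end of the gene, from 67302 to 67519 bp (fold 2.71). None of these 3 regions had H3K27ac. LMO3 has 31 annotated starts, and every promoter peak of the gene was at the canonical one.

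CELF3 lies at chr1:151700058-151716803 on the minus strand in the most heavily acetylated of the 7 windows, and the strong peaks there were over other genes or between genes. At its own start H3K27ac had a fold of 2.5 in C4-2B, from 370 to 830 bp in exon 1, and no peak in C4-2BER. H3K18ac was 2.92 in C4-2B and 2.7 in C4-2BER. Along the gene body H3K27ac was in C4-2B only over exons 3 to 5 (fold 2.39) and exon 13 (fold 2.18), and in both lines from 9421 to 10869 bp (2.55 in C4-2B and 2.23 in C4-2BER).

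Upstream of CELF3 the H3K27ac peaks in a single line were all of C4-2BER: 3.13 from -8485 to -6465 bp and 2.09 from -5008 to -4500 bp. H3K18ac was present at both in both lines, at 3.17 in C4-2BER against 2.64 in C4-2B for the first, and at 2.69 and 4.06 for the second. The second lies on the promoter of RIIAD1. Farther from the gene, a block from -25364 to -15133 bp held 1 H3K27ac peak of C4-2BER and 2 of C4-2B, with folds of 7.17 and 7.67, and H3K18ac there was 4.46 and 3.9.

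Only 1 H3K27ac region in the 7 windows, called the SNX27 element here, was increased in both marks. It lies from 45176 to 45726 bp past the CELF3 start, in the body of SNX27, a sorting nexin of endosomes. H3K27ac had a fold of 5.08 and H3K18ac 4.09 in C4-2BER, and neither mark had a peak there in C4-2B. Repeated words made up 27% of the 16-base words in its central 300 bases. Over the genome 8.15% of H3K27ac regions were increased in both marks and 5.01% decreased in both. In the windows 1 of 25 was increased and none was decreased in both. At the far edge a region over the promoters of MRPL9 and OAZ3, a mitochondrial ribosomal protein and an antizyme, had an H3K27ac fold of 15.6 in C4-2B against 10.8 in C4-2BER (log2 ratio -0.54). In C4-2B it held a peak of 1764 bp with a fold of 26.3, the highest of any peak in the 7 windows, and a peak of 4544 bp with 11.5, while in C4-2BER it was 1 peak of 10539 bp. H3K18ac had a fold of 11.4 in C4-2B and 6.21 in C4-2BER over the MRPL9 start, and the noncoding ENSG00000232937 shares these peaks.

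PCSK1 lies at chr5:96390333-96434143 on the minus strand and had the least marked promoter of the 7. No H3K27ac peak of either line lay on its promoter. H3K18ac was found in C4-2B only, from 85 to 1007 bp with a fold of 2.48, and 2.91% of the H3K18ac promoters of that line lay below it. The only H3K27ac peak of the window was in C4-2B at its far edge, from 92795 to 93036 bp, with a fold of 2.72.

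H3K18ac peaks around PCSK1 lay partly at other places in each line. In C4-2BER alone a peak of 314 bp lay upstream from -22608 to -22295 bp with a fold of 3.27, the highest of the 4 H3K18ac peaks of C4-2BER in the window. A peak in intron 9, from 30575 to 31075 bp, was in both lines with 2.79 in C4-2BER against 2.47 in C4-2B. Of the 7 H3K18ac regions 2 were shared, 2 were C4-2BER-only and 3 were C4-2B-only.

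Over the 7 windows some regions were found in each line alone, and no single direction held. Joining any peaks of the lines that shared a base gave 25 H3K27ac regions, of which 11 were shared, 6 were found in C4-2BER alone and 8 in C4-2B alone. The 6 increased stand against 30.5% of all 89877 H3K27ac regions, and the 8 decreased against 22.7%. H3K18ac gave 73 regions, with 46 in both lines, 16 increased against 26.2% of all 247646 and 11 decreased against 23.5%. All of these calls came from a peak in a single line, since no shared region of the windows reached a ratio of 2 in either direction.

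The shared H3K27ac regions had a median log2 ratio of -0.37 and those of H3K18ac one of -0.20, against -0.17 and -0.12 over the genome. The fold was higher in C4-2BER at 2 of 11 H3K27ac regions and 10 of 46 H3K18ac regions, where 36.2% and 32.6% of all shared regions were. Peaks of C4-2BER were wider at 7 of 11 and 29 of 46 shared regions, against 69.2% and 62.7% of all. Lower fold and greater width occurred together at 5 of the 11 and 20 of the 46, against 39.4% and 36.7%.

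Base composition varied with the line in which a region was found. The median GC content was 54.1% for the shared H3K18ac regions of the windows, 47.5% for the C4-2BER-only regions and 55.6% for the C4-2B-only regions. Over the genome the same medians were 51.4%, 49.0% and 54.9%. For H3K27ac the medians in the windows were 59.7%, 49.5% and 60.3%, against 51.5%, 49.7% and 55.6%. For both marks the C4-2BER-only regions had the lowest median, in the windows as in the genome. Centring the ratios of shared regions within bins of GC content left the counts of called regions unchanged. That step cannot alter a call from a peak in a single line, so the part of GC content in such calls was not tested.

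Most H3K27ac regions in a single line sat on H3K18ac that both lines had. This was so for 4 of the 6 C4-2BER-only regions, at NKX2-1, LMO3 and CELF3, and for 6 of the 8 C4-2B-only regions, at POU3F2, ONECUT2 and CELF3. Over the genome the shares were 56.1% and 60.5%. Of the 16 C4-2BER-only H3K18ac regions 15 had no H3K27ac in either line, the exception being the SNX27 element, and the 11 C4-2B-only regions had none. Single-line H3K18ac on H3K27ac of both lines was rare over the genome too, at 1.9% and 2.46% of such regions, and H3K27ac of the same line alone lay on 11.6% and 7.01%.

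**Figure D3:**
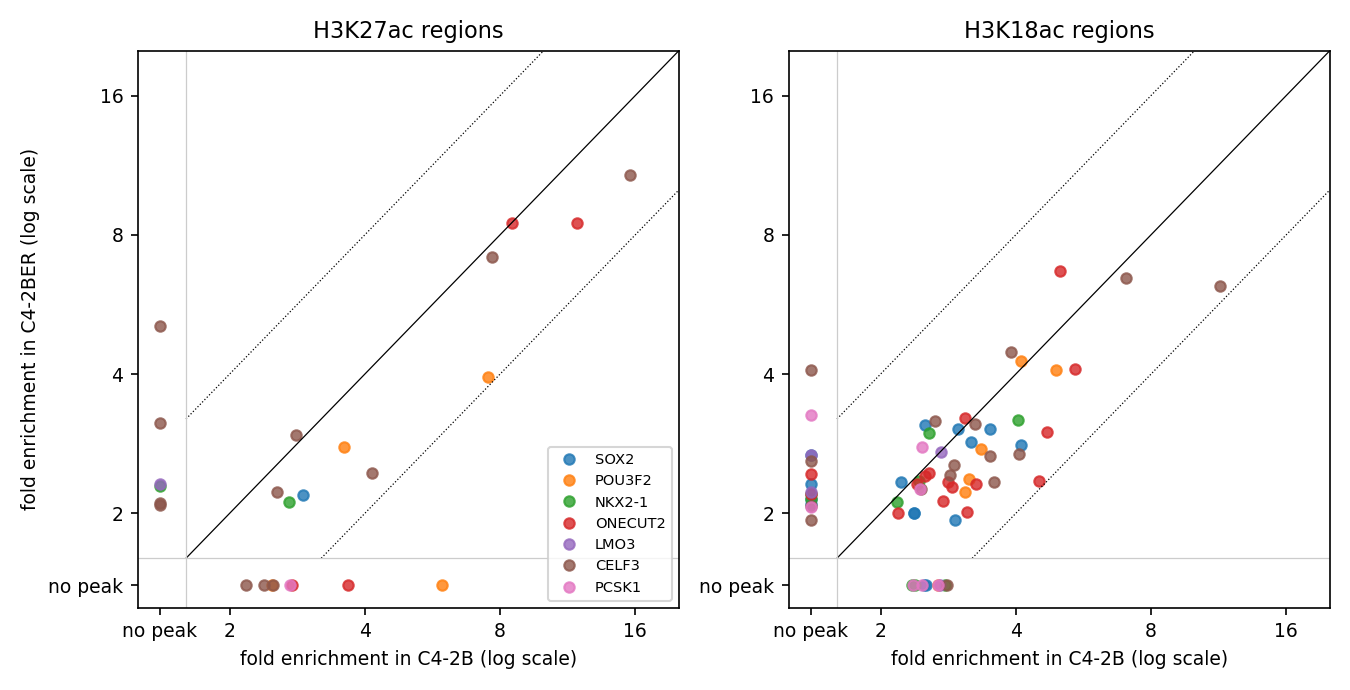
Fold enrichment of each region in C4-2BER against C4-2B, both on log axes, for the 25 H3K27ac regions (left) and 73 H3K18ac regions (right) of the 7 windows, coloured by gene. The solid line is equality, dotted lines are a ratio of 2, and points beyond the grey lines have no peak in that line; no shared region lies outside the dotted lines.

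Enrichment summed over a window, as fold times covered length, put the 7 genes in different places among all genes. For H3K27ac the sum was in C4-2BER only at LMO3 (increased, as 7.58% of all gene windows were) and in C4-2B only at PCSK1. It was called decreased at PCSK1 and NKX2-1, where the log2 ratio was -1.21, and 4.76% of all windows were decreased. The sum at PCSK1 rested on 121 bp of 1 peak that was cut by the window edge. With flanks of 100 kb the ratio of NKX2-1 was 0.16. POU3F2 had -0.85, SOX2 -0.51, ONECUT2 -0.07 and CELF3 0.30, with a median of -0.14 over 18354 genes. The 2.38% of genes with a lower ratio than NKX2-1 and the 80.3% with a lower ratio than CELF3 give the span.

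For H3K18ac the sum was increased at LMO3 only, with a log2 ratio of 1.44, where 5.42% of all windows were increased; with flanks of 10 kb it was 0.84, under the ratio of 2. None of the 7 was decreased (5.76% of all). NKX2-1 had -0.90, POU3F2 -0.62, PCSK1 -0.51, ONECUT2 -0.09, CELF3 0.24 and SOX2 0.32. With flanks of 10 kb CELF3 was -0.30 and SOX2 -0.08, with flanks of 100 kb PCSK1 was 0.35, and with rescaling over the shared regions ONECUT2 was 0.06, so these directions were not stable. At LMO3 the peaks covered 2834 bp in C4-2BER and 1021 bp in C4-2B with mean folds of 2.66 and 2.72, so the ratio came from covered length and rests on 3 peaks against 2. At SOX2 the length rose from 11280 to 16787 bp while the mean fold was 3.09 in C4-2B and 2.6 in C4-2BER. POU3F2 and NKX2-1 were lower in C4-2BER in both covered length and mean fold for both marks.

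**Figure D4:**
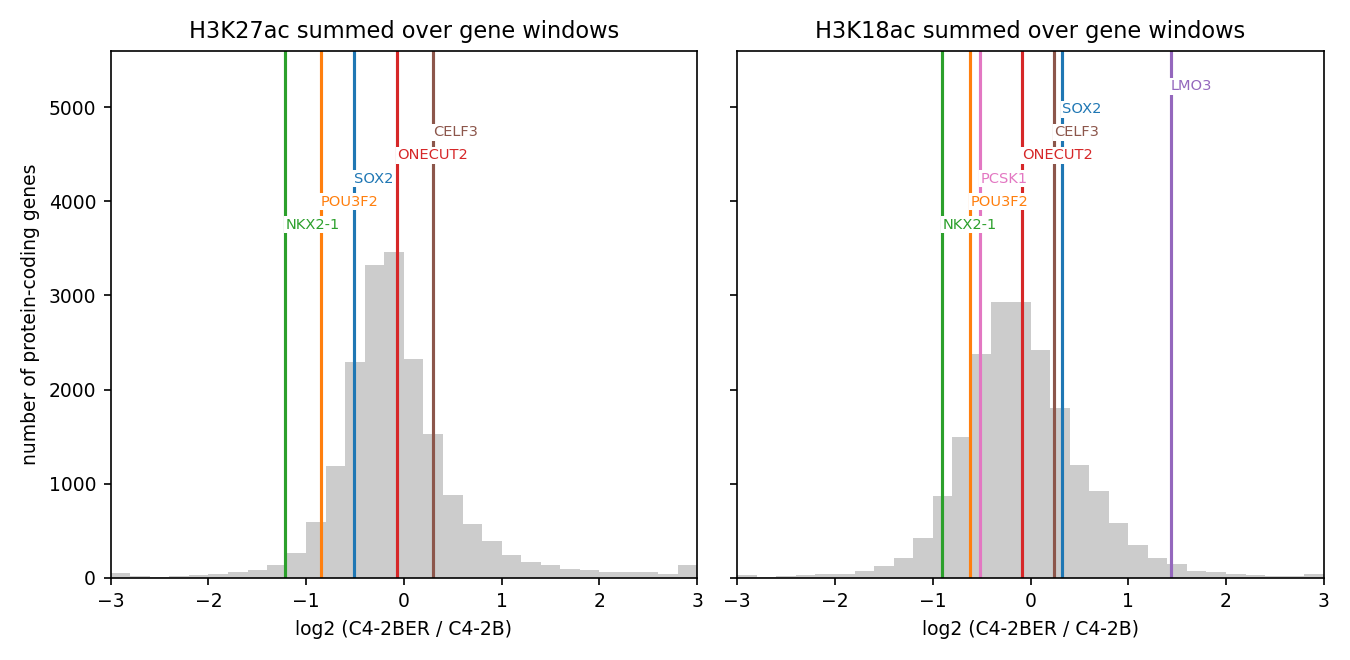
Distribution over protein-coding genes of the log2 ratio of enrichment summed over a gene and its flanks (C4-2BER over C4-2B), with bars counting genes in steps of 0.2, the end bars holding all values beyond 3 in size, and coloured lines for the members with a sum in both lines. NKX2-1 and POU3F2 lie to the left in both panels, and LMO3 lies at 1.44 for H3K18ac.

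Paralogues of the 7 genes in the SOX, POU3F, NKX2, ONECUT, LMO, CELF and PCSK families were mostly lower in C4-2BER, as were all genes. Of those with a promoter peak in both lines 3 of 16 were higher in C4-2BER for H3K27ac (median log2 ratio -0.41) and 5 of 22 for H3K18ac (-0.32), against medians of -0.50 and -0.33 for all genes. Of 26 paralogues, H3K27ac was increased at 2 promoters, CELF2 (4.98 in C4-2BER only) and CELF5 (2.12 in C4-2BER only), where 3.49% of all promoters were increased. It was decreased at 3, where 8.27% of all were. These were NKX2-2 (4.45 in C4-2BER against 9.68 in C4-2B), FURIN (8.49 and 20.4), a convertase of most tissues, and PCSK4 (11.9 and 26.2). At the canonical start alone FURIN was 8.49 in C4-2BER against 5.0 in C4-2B, the other direction, and PCSK4 was 11.9 against 16.1, under the ratio of 2. CELF5 had no H3K27ac peak at its canonical start. H3K18ac was increased at SOX3 (2.25 in C4-2BER only) and decreased at NKX2-3 (2.3 in C4-2B only) and ONECUT3 (2.21 in C4-2B only). Of all promoters 1.92% were increased and 5.25% decreased in H3K18ac.

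Of 12 other regulators of the neuroendocrine state, H3K27ac was decreased at none, where 8.27% of all promoters were. H3K18ac was increased at none (1.92% of all promoters) and decreased at 2 (5.25% of all). These 2 were the neurogenic factor NEUROD1 (2.43 in C4-2B only) and the neural splicing regulator SRRM4 (2.44 in C4-2B only). Both were weak peaks, with 2.22% and 2.32% of the H3K18ac promoters of C4-2B below them. The median log2 ratio of the regulators with a peak in both lines was -0.35 for 7 genes in H3K27ac and -0.19 for 10 genes in H3K18ac, against -0.50 and -0.33 for all genes.

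The labelled identities were set against marker promoters. The luminal prostate markers KLK2, KLK3, TMPRSS2, FOXA1, HOXB13, KRT8 and KRT18 had peaks of both marks, in C4-2BER as in C4-2B. Of the 10 neuroendocrine markers 3 had H3K27ac promoter peaks in both lines, with a median log2 ratio of -0.53 against -0.50 for all genes. Only ENO2, the neuronal enolase, was higher in C4-2BER among these 3, and it was called increased (14.3 against 4.0 in C4-2B). At its canonical start it was 7.3 against 4.0, under the ratio of 2. For H3K18ac 8 of the 10 had peaks in both lines, with a median of -0.04, and 4 were higher in C4-2BER. CHGB, a granin of secretory granules, had H3K18ac in C4-2B only (2.67). Of 5 fibroblast and blood markers 1 had H3K27ac in each line, and H3K18ac was on 3 in C4-2BER against 2 in C4-2B, with DCN in C4-2BER only (2.68). Peaks over promoters do not measure RNA or protein.

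The promoter profiles closest to each gene were found by the Euclidean distance of log2 fold over the lists in which the gene had a peak, among genes with peaks in the same lists. Over 4 lists and 14240 genes MMP23B was closest to SOX2 (distance 0.0433), followed by IRX6 (0.146) and EDAR (0.154). TNFSF13B (0.0985) and PLCL1 (0.102) were close to POU3F2, and LSM7 and SPPL2B (0.0739 each) and RAB19 (0.0866) to ONECUT2. SFTA3 was at 0.0 from NKX2-1, being the gene with which it shares a promoter, and IRX6 (0.123) and ENSG00000254979 (0.127) followed. Over 3 lists CATSPERB (0.0593), SMIM39 (0.0666) and RNASE1 (0.0693) were closest to LMO3 among 483 genes, and ASIC3 (0.055), CLEC4D (0.0622) and PILRA (0.0643) to CELF3 among 407. PCSK1, with 1 list, was matched to KRT31, FAM187A and ANKRD34C on that value alone. A distance over so few values is a description of levels.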

How the data were processed

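ChIP-Seq libraries (8 ChIP and 2 input) came from chromatin fixed with DSG and formaldehyde. The authors aligned reads to GRCh38 with bowtie2, dropped duplicates and reads of low mapping quality or in blacklisted regions, pooled the replicates and called broad peaks with macs2. The version of Bowtie2 in the submitters' processing notes is 2.2.3, beside Trimmomatic 0.33 and bcl2fastq 2.17. Whether the input was the macs2 control is not given in the sources used here. The deposited values are fold enrichment, a ratio to local background within each list, and −log10 q-values. Fold was not scaled between lines, so ratios also carry differences in background and depth.

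Peaks were merged into regions by any shared base and placed on GENCODE release 44. The 7 members, the lists of paralogues, regulators and markers, and the rules were chosen with earlier results of these data known. The text names every member, neighbours with a peak on their promoter, listed genes with a called promoter, and the 3 closest profiles. Some genes and sequences these rules select are not reported here. The search for repeated 16-base words, peak widths and the other mark at single-line regions was added after the peaks were seen. Sequences are from RefSeq (GRCh38.p14 promoters) and GRCh38. The code for calling was checked on simulated lists, where 800 of 800 planted changes in 4000 regions were found and 0 of 3200 unchanged regions called. The planted changes were well past the ratio of 2 or were peaks removed outright, so a full score was fixed by the settings. No simulated peak was lost for being weak, so the check does not measure how reliable the single-line calls are. Python 3.11.15, pandas 2.3.3, numpy 2.4.6, scipy 1.17.1, statsmodels 0.14.6, pysam 0.24.0, samtools 1.23.1 and matplotlib 3.10.9 were used. The alternatives are given in the closing section.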

Additional observations from a re-analysis of the deposited data

How the results depend on the processing

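No paired analysis was possible because peaks were called on pooled replicates, and for the same reason no replicate could be left out. Calls of sums rest on a ratio of 2. The numbers of regions followed the peak filter and the window. With peaks of a fold of at least 4, 1 H3K27ac region was increased and 3 decreased, and 1 and 6 for H3K18ac. Peaks filtered at a −log10 q-value of 5 gave 3 increased and 4 decreased H3K27ac regions, and 6 increased and 4 decreased H3K18ac regions. With 10 kb flanks 5 H3K27ac regions were decreased, and 1 H3K18ac region was increased and 5 decreased. With 100 kb flanks the increased H3K27ac regions numbered 13 and the decreased 14, and those of H3K18ac 36 and 27. The other 21 of 36 counts stayed within 1.5 times. Among them, calling by presence of a peak alone, rescaling, and centring ratios within bins of GC content gave the main counts again. These 3 settings cannot remove a call that comes from a peak in a single line, as all calls in the windows did.

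The summed H3K27ac ratio of NKX2-1 turned to 0.16 with 100 kb flanks. Its H3K18ac ratio passed the ratio of 2 with the q-value filter (-1.25) and with 10 kb flanks (-1.16), as did that of PCSK1 with 10 kb flanks (-1.41) and that of CELF3 with a fold of at least 4 (1.14), while LMO3 fell under it with 10 kb flanks (0.84). Sums were recomputed only where both lines still had a peak in the window. Settings that emptied 1 line were therefore not counted. These included POU3F2 H3K27ac, SOX2 H3K18ac and NKX2-1 H3K18ac with a fold of at least 4, and PCSK1 H3K18ac with the q-value filter. The H3K27ac sums of LMO3 and PCSK1, present in a single line, were not recomputed. The other 67 of 73 sums kept their call, but not all kept their direction: for H3K18ac CELF3 was -0.30 and SOX2 -0.08 with 10 kb flanks and PCSK1 0.35 with 100 kb flanks, and with rescaling ONECUT2 was 0.22 for H3K27ac and 0.06 for H3K18ac. The cause was not tested. The 56 promoter ratios recomputed, all from promoters that still had a peak in both lines, kept their call, and LMO3 H3K18ac was higher in C4-2BER with rescaling. Which promoters had a peak depended on the filter: with the canonical start alone, or equal numbers of peaks, NKX2-1 had H3K27ac in C4-2B only, with the q-value filter POU3F2 had H3K27ac in C4-2B only, and with a fold of at least 4 SOX2 and NKX2-1 had H3K18ac in C4-2B only and ONECUT2 alone had H3K27ac, so the single-list calls at LMO3, CELF3 and PCSK1 rest on peaks near the lower end of the lists.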
